A study of Homo sapiens with 6 samples.

Results

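The transcripts described here are the measurable antisense RNAs of MDA-MB-231 cells. They were chosen by type and read count alone: they are the rows that the deposited read table types as antisense and that had at least 20 reads in each of the 6 libraries, leaving out symbols that start with SNHG and the genes GAS5, ZFAS1 and EPB41L4A-AS1. The counts of all 6 libraries chose the members, not a difference between groups. Of 3458 antisense rows in a table of 31582 genes, 497 met this rule. MDA-MB-231 is a long-used human breast cancer line without hormone receptors or HER2 amplification. The CALR knockdown group (labelled MDA-MB-231-shCALR) holds 3 libraries of cells carrying an shRNA against CALR, which encodes calreticulin, which binds calcium and helps glycoproteins fold in the endoplasmic reticulum. The control group (labelled MDA-MB-231-NTC) holds 3 libraries of the same line with a non-targeting control. All cells were grown in DMEM with serum and collected before confluence, and strand-specific libraries were made from polyadenylated RNA. The labels do not say how many shRNA sequences, infections or separate cultures stand behind a group, so p-values measure only the spread between these libraries. Whether reads were counted by strand is not given in the sources used here, so reads of an antisense transcript and of a gene on the other strand cannot be told apart where their exons overlap.

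An antisense RNA is transcribed from the DNA strand opposite to a gene. Many start from a promoter shared with a coding gene that runs the other way, others start inside a gene or behind its end, and some are known to act on the chromatin, splicing or stability of the RNA they face. Antisense RNAs are usually less abundant than mRNAs, many are retained in the nucleus, and a poly(A)-selected library sees only those that carry a tail.

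Library totals lay between 34639090 and 42425310 reads. CALR itself had 493, 66.4 and 110 CPM (reads scaled to library size with TMM factors) in the knockdown libraries, against 1213, 979 and 926 CPM in the control libraries. The groups did not overlap, and the knockdown libraries were at 47.5%, 6.39% and 10.6% of the control mean, so knockdown replicate 1 kept the most CALR. The log2 fold change was -2.22 ± 0.64 (SE) with an edgeR adjusted p of 0.209. VIM lay between 795 and 1317 deposited FPKM and CD44 between 62.2 and 85.3, while ESR1, PGR and CDH1 were at 0.20 FPKM or less. ERBB2 and EPCAM, listed with them as genes low or absent in this line, were higher. ERBB2 lay between 4.77 and 6.9 FPKM and EPCAM between 2.61 and 4.17 FPKM. Of the blood and endothelial genes read, PTPRC, CD3E, CDH5 and VWF were at 0.04 FPKM or less, CD14 lay between 0.13 and 0.52 FPKM and PECAM1 between 0.12 and 0.54 FPKM. PECAM1 had 4.17, 1.71 and 1.82 CPM in the knockdown and 1.56, 0.961 and 0.848 CPM in the control libraries (log2 fold change 1.19 ± 0.44, edgeR adjusted p = 0.264). Of the fibroblast genes, PDGFRA was at 0.01 FPKM or less and LUM between 1.71 and 3.69 FPKM. DCN had 0.457, 0 and 0.724 CPM in the knockdown and 2.88, 1.35 and 1.28 CPM in the control libraries (-2.23 ± 0.86, edgeR adjusted p = 0.276). The part of these genes' cell types in the results was not tested. In bulk RNA, fewer cells of a kind and less RNA per cell cannot be told apart.

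Promoter windows are shown for the antisense transcripts on which the results below turn: THAP9-AS1 with the THAP9 gene that faces it, ZBED5-AS1, and NOP14-AS1. Each runs from 250 bases before to 50 bases after the RefSeq start, on GRCh38.p14, read 5′ to 3′ on the strand of the gene. Capitals mark the CCAAT box (CCAAT), the GC box (GGGCGG) and the ETS motif (CCGGAAG) on either strand, and matches may overlap. The windows are chr4:82900867-82901166 (minus strand) for THAP9-AS1, chr4:82900485-82900784 (plus strand) for THAP9, chr11:10857967-10858266 (plus strand) for ZBED5-AS1 and chr4:2935296-2935595 (plus strand) for NOP14-AS1. The RefSeq start lies 647 bases downstream of the GENCODE 29 start for NOP14-AS1, so this window is inside the transcript as GENCODE draws it. For the other windows the starts differ by 51 bases or less.
THAP9-AS1: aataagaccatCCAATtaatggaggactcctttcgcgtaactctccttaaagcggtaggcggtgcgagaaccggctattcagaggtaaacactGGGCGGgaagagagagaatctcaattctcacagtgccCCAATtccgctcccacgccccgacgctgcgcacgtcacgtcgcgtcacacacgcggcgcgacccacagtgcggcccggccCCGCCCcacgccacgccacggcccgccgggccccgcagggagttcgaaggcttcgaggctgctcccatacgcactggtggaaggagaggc
THAP9: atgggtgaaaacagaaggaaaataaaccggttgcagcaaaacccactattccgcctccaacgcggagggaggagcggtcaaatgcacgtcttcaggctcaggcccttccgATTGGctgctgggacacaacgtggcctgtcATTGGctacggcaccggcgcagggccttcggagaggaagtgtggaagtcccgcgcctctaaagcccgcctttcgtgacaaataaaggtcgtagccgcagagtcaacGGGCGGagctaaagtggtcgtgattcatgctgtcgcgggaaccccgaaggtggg
ZBED5-AS1: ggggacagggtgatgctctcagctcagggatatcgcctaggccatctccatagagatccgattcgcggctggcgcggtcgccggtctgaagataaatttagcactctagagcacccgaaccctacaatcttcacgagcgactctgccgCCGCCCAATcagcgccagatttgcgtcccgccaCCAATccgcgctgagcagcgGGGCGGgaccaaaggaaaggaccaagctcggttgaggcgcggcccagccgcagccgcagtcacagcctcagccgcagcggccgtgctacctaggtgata
NOP14-AS1: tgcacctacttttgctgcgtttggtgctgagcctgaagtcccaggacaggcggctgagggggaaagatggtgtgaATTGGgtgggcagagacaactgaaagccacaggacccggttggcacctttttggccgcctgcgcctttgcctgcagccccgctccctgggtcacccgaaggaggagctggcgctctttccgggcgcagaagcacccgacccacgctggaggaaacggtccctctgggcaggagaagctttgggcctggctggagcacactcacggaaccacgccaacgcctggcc
The THAP9-AS1 and ZBED5-AS1 windows each held 2 CCAAT boxes and 2 GC boxes, the THAP9 window held 2 CCAAT boxes and 1 GC box, and the NOP14-AS1 window held 1 CCAAT box and no GC box. None of the 4 held the ETS motif.

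RefSeq windows were found for 254 of the 497 transcripts, 127 by symbol and 127 by gene identifier. Their median GC content was 65.8%, against 58.3% over 27305 genes with a window, and their median ratio of observed to expected CpG was 0.82, against 0.58. The GC box stood in 64.6% of the antisense windows, against 44.6% of all windows, and the ETS motif in 16.5%, against 10.7%. The CCAAT box stood in 33.1%, against 35.7%, and the TATA box (TATAAA) in 6.69%, against 12%. The core letters of the hypoxia response element were searched as well: ACGTG stood in 29.1%, against 21.6% of all windows, and GCGTG in 51.2%, against 36.3%. Both are short and GC-rich, and the shares are descriptions of letters, not of binding. The 27305 genes were not filtered on reads, and the first window listed for each was taken. For the antisense transcripts the window nearest the GENCODE 29 start was taken where that start was known. The part of these choices in the differences was not tested.

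The antisense transcripts were low compared with coding genes. Their median level was 1.58 FPKM (interquartile range 0.763 to 3.07), against 7.52 FPKM for the 12036 protein-coding genes with at least 20 reads in each library. Only 24 reached 10 FPKM on average and 170 stayed under 1 FPKM. In reads, 108 had fewer than 30 in their lowest library and 12 had at least 1000 in every library. At the edge of the rule, 16 transcripts had exactly 20 reads in their lowest library and averaged a median of 29.8 reads in knockdown and 32.5 in control libraries. The 12 antisense rows just outside, with 19 in their lowest library, averaged a median of 30.2 and 31.3 reads.

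Together the 497 transcripts took 0.270%, 0.327% and 0.285% of the reads in the knockdown libraries, against 0.321%, 0.325% and 0.336% in the control libraries. By this share, knockdown replicates 1 and 3 were below all control libraries, and knockdown replicate 2 lay within the control range. Summed as TMM-scaled CPM, the transcripts came to 2878, 3112 and 3241 in the knockdown and 3142, 3088 and 3134 in the control libraries. On that scale knockdown replicate 3 was the highest of the 6 libraries and knockdown replicate 1 the lowest. The number of antisense rows with any read was 2180, 2405 and 2344 in the knockdown libraries, against 2509, 2409 and 2556 in the control libraries, so every knockdown library was below every control library. Over all genes the same count was 22774, 24465 and 23891 in the knockdown and 25199, 24406 and 25207 in the control libraries, where knockdown replicate 2 exceeded control replicate 2. These 2 libraries were close in both counts and differed in depth, with 38336250 reads in knockdown replicate 2 and 34639090 in control replicate 2. Antisense rows with at least 20 reads numbered 603, 699 and 673 in the knockdown and 695, 641 and 720 in the control libraries, which overlap.

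The 8 most abundant transcripts held 20.1% of the reads. RP4-614O4.11 averaged 177 FPKM, the highest level, with 103, 79.98 and 144 CPM in knockdown and 83.0, 104 and 90.7 CPM in control libraries. These groups overlapped (log2 fold change 0.23 ± 0.23). GENCODE 29 types it as protein coding, and 80.3% of its exon bases also belong to a gene on the same strand, so its reads may be shared with that gene. RP11-282O18.3 averaged 87.5 FPKM and likewise overlapped between groups, with a log2 fold change of 0.09 ± 0.20.

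FGD5-AS1, a widely expressed antisense RNA, had 183, 169 and 208 CPM in the knockdown libraries, against 221, 235 and 221 CPM in the control libraries. All knockdown values were below all control values, at a log2 fold change of -0.27 ± 0.15 and an edgeR adjusted p of 0.406. FGD5 itself, the gene it is named for, had no read in any knockdown library and at most 0.05 CPM in a control library. MMP24-AS1 had 114, 69.4 and 157 CPM in knockdown libraries, against 75.9, 76.9 and 67.5 CPM in control libraries. Knockdown replicate 2 lay within the control range, and the log2 fold change of 0.63 ± 0.27 became 1.16 once a GC trend was removed from each library. CTB-25B13.12 (log2 fold change -0.11 ± 0.24) and PITPNA-AS1 (-0.19 ± 0.19) overlapped between groups. ENSG00000223478.1, at 24.3 FPKM, had 19.3, 16.4 and 16.3 CPM in knockdown and 13.9, 9.88 and 9.67 CPM in control libraries, so its groups did not overlap (log2 fold change 0.64 ± 0.22, edgeR adjusted p = 0.242).

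**Figure D1:**
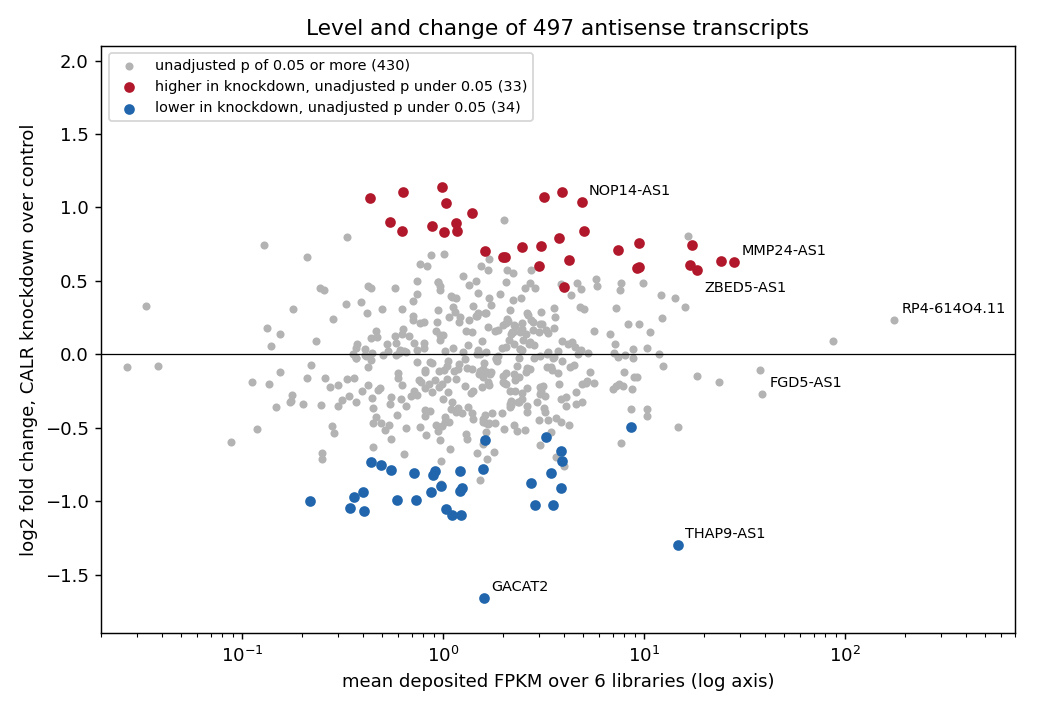
The mean deposited FPKM of each of the 497 antisense transcripts (log axis) is plotted against its log2 fold change, CALR knockdown over control. The 33 transcripts higher and the 34 lower by an unadjusted edgeR p under 0.05 lie mostly at low levels, with THAP9-AS1 (-1.30) apart from the other transcripts above 10 FPKM.

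Between CALR knockdown and control cells, 0 of the 497 transcripts passed the adjusted threshold of 0.05 in edgeR's quasi-likelihood test, where 0.0% of the 16394 genes tested passed. The smallest adjusted p among them was 0.145. By the unadjusted edgeR p alone, taken at 0.05 and called nominal from here on, 33 were higher in knockdown cells (6.64%) and 34 were lower (6.84%), against 8.17% and 7.36% of all genes tested. Both shares were near or under the background. The 3 knockdown values lay above the 3 control values for 47 transcripts and below them for 60, that is 9.46% and 12.1%, against 11.3% and 11.2% of all genes. DESeq2 called 10 of the transcripts (2.01%) and 530 of all genes (3.23%) at the same adjusted threshold, and limma-voom called 0 of both.

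The count of calls rested on single libraries. Without knockdown replicate 2 the adjusted calls among the transcripts were 37 (7.44%), against 2604 of 16783 genes (15.5%), and 40 were nominally higher (8.05%) and 67 nominally lower (13.48%). Without control replicate 2 the nominal counts were 10 higher (2.01%) and 17 lower (3.42%), against 3.86% and 4.62% of all genes. Without control replicate 3 they were 8 (1.61%) and 14 (2.82%). Over all genes the nominal shares moved as well, to 17.9% higher and 17.7% lower without knockdown replicate 2 and to 2.87% and 4.36% without control replicate 3. Scaling by library size alone gave 15 nominally higher (3.02%) and 54 nominally lower (10.9%), against 4.45% and 11.03% of all genes. The fit on log2(FPKM + 0.1), which tested 335 of the transcripts, gave 14 (4.18%) and 36 (10.7%), against 5.501% and 10.5% of all genes.

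The median log2 fold change of the 497 transcripts was -0.05 (interquartile range -0.33 to 0.23), with 225 above 0, against -0.00 over all genes tested. It lay between -0.076 and -0.010 with a library left out, was -0.010 without control replicate 1 and -0.026 without knockdown replicate 1, 0.00017 with the GC correction and 0.0036 at a bound of 50 reads. The GC correction also moved the median of all genes, to 0.084. Relative to all genes the difference was then -0.084, against -0.054 in the main fit. Library size alone shifted the median of all genes to -0.13 and that of the antisense transcripts to -0.19, so relative to all genes the difference stayed at -0.05. For 470 intergenic long non-coding RNAs with at least 20 reads in each library the median was -0.06, and for the protein-coding genes it was 0.04. The protein-coding genes had 1188 of 12036 nominally higher and 697 nominally lower. The member medians per library, as log2 CPM minus the control mean, were -0.19, -0.04 and -0.05 in the knockdown and 0.05, -0.03 and -0.01 in the control libraries. Knockdown replicate 1 stood lowest, and the other knockdown libraries were just below the lowest control library.

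The rule removed more transcripts on one side. Of the antisense rows that missed it, 26 had at least 20 reads in all knockdown libraries but not in all control libraries, with a median log2 fold change of 0.45, and 91 had the reverse, with a median of -0.59. These medians follow from how the rows were picked. The same imbalance was present among intergenic long non-coding RNAs (24 and 110) and protein-coding genes (68 and 472). Among the 472 antisense rows outside the rule that could be tested, 9 were nominally higher (1.91%) and 31 nominally lower (6.57%), against 8.17% and 7.36% of all genes.

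The transcripts with the lowest and highest log2 fold changes were mostly rare. Of the 20 named by the rule in the methods, 10 on each side, 18 were under 10 CPM in both groups. THAP9-AS1 and NOP14-AS1 were the exceptions. Leaving out each library in turn, 10 of the 20 stayed nominal every time, and 18 did after the GC correction.

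THAP9-AS1 (chr4:82893009-82900960, minus strand, GRCh38 with GENCODE 29) faces THAP9, a gene derived from a DNA transposase. It had 32.4, 35.4 and 29.2 CPM in the knockdown libraries, against 65.8, 77.1 and 95.9 CPM in the control libraries. Every knockdown library was below every control library, at 32.4 ± 3.1 CPM against 79.6 ± 15.2 CPM (SD, n = 3 each). The log2 fold change was -1.30 ± 0.19, lay between -1.42 and -1.14 with any library left out, and had an edgeR adjusted p of 0.145. DESeq2 and edgeR without a filter on low counts put it past the adjusted threshold, as did the fit without knockdown replicate 2 (adjusted p = 0.015). With the GC correction the log2 fold change was -1.16.

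THAP9, which starts 276 bases away on the other strand, had 2.09, 3.06 and 1.48 CPM in knockdown and 3.89, 3.68 and 3.28 CPM in control libraries. Its groups did not overlap either, with a log2 fold change of -0.71 ± 0.32 and an edgeR adjusted p of 0.325. By GENCODE 29 THAP9 starts at 82900684, inside the span of THAP9-AS1, so the spans of this pair overlap at their starts. Whether the pair shares reads was not tested. THAP9 averaged 0.727 FPKM and THAP9-AS1 14.7 FPKM, so in this pair the antisense RNA was the more abundant one. The log2 ratio of antisense to sense overlapped between groups, with a difference of -0.53 between knockdown and control.

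GACAT2 lies inside MTCL1, which encodes a microtubule cross-linking factor, and had the lowest log2 fold change of the 20. It had 0.69, 0.75 and 0.54 CPM in the knockdown libraries, against 2.06, 1.92 and 2.25 CPM in the control libraries. That is 24, 30 and 20 reads against 78, 70 and 98 reads, with no overlap between groups. The log2 fold change was -1.66 ± 0.30, and the edgeR adjusted p was 0.145. With 20 reads in its lowest library, GACAT2 stood exactly at the bound of the rule.

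CKMT2-AS1 and HCG18 were chosen after their values were seen, as more abundant transcripts with negative log2 fold changes. CKMT2-AS1 had 7.43, 10.0 and 8.32 CPM in the knockdown and 14.8, 15.1 and 15.3 CPM in the control libraries, with a log2 fold change of -0.81 ± 0.20 (edgeR adjusted p = 0.184). HCG18, which lies in the major histocompatibility region and starts 671 bases from TRIM39, had 30.6, 32.5 and 37.0 CPM in the knockdown and 47.5, 53.0 and 47.1 CPM in the control libraries. Neither overlapped between groups. The log2 fold change of HCG18 was -0.56 ± 0.16 (edgeR adjusted p = 0.209).

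The other 8 named transcripts on the lower side had log2 fold changes between -1.10 and -1.0. They were AC005329.7, RP11-731C17.2, RP11-378J18.8, RP11-20I23.13, VLDLR-AS1, ENSG00000272579.1, DGUOK-AS1 and LACTB2-AS1. AC005329.7 shares 75.4% of its exon bases with NDUFS7, a subunit of respiratory complex I on the other strand. It had 2.37, 2.48 and 3.06 CPM in the knockdown and 4.84, 6.97 and 5.11 CPM in the control libraries, while NDUFS7 had a log2 fold change of 0.38 ± 0.21. RP11-731C17.2 stood at -0.64 and RP11-378J18.8 at -0.63 with the GC correction, and neither was then nominal. RP11-378J18.8, RP11-20I23.13, VLDLR-AS1, ENSG00000272579.1 and LACTB2-AS1 were not nominal in at least 1 fit with a library left out.

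NOP14-AS1 (chr4:2934899-2961738, plus strand) runs against NOP14, a factor in the assembly of the small ribosomal subunit, and starts 40 bases from MFSD10, a membrane transporter gene. It had 45.0, 33.4 and 38.8 CPM in the knockdown libraries, against 20.8, 19.4 and 17.0 CPM in the control libraries. Every knockdown library was above every control library, at 39.1 ± 5.82 CPM against 19 ± 1.92 CPM (SD, n = 3 each). The log2 fold change was 1.04 ± 0.19 and the edgeR adjusted p was 0.145. It kept its size with the GC correction (1.03) and was past the adjusted threshold in DESeq2, without the filter and without knockdown replicate 2.

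Neither neighbour of NOP14-AS1 separated by group. NOP14 had 170, 134 and 179 CPM in knockdown and 137, 148 and 142 CPM in control libraries (log2 fold change 0.18 ± 0.16). MFSD10 had 103, 48.0 and 107 CPM in knockdown and 69.2, 75.6 and 69.0 CPM in control libraries (0.27 ± 0.28), with knockdown replicate 2 below every control library. The log2 ratio of NOP14-AS1 to NOP14 was higher in all 3 knockdown libraries, by 0.86. The exact two-sided permutation test over libraries gave p = 0.1, the smallest that 3 against 3 allows.

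The other 9 named transcripts on the higher side were all under 10 CPM, with log2 fold changes between 0.89 and 1.14. They were AC137932.6, LPP-AS2, ENSG00000233384.1, RP11-800A18.4, RP3-439F8.1, AP001062.7, RP11-483I13.5, NDUFB2-AS1 and RP11-129M16.4. AP001062.7 was the most abundant of them, with 8.14, 4.40 and 7.24 CPM in the knockdown and 2.91, 3.32 and 3.44 CPM in the control libraries. AC137932.6, LPP-AS2, RP11-800A18.4, NDUFB2-AS1 and RP11-129M16.4 lost the nominal p in at least 1 fit that left out a library. RP11-483I13.5 starts 923 bases from SLC25A24, which encodes a mitochondrial ATP carrier, and had 3.2, 2.66 and 3.54 CPM in the knockdown, against 1.51, 1.87 and 1.44 CPM in the control libraries. SLC25A24 had a log2 fold change of -0.26 ± 0.20 and overlapped between groups.

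NRAV and DBH-AS1 were also chosen after their values were seen. NRAV, named for a role in the antiviral response, had 16.5, 16.5 and 24 CPM in the knockdown and 10.3, 13.9 and 10.7 CPM in the control libraries (log2 fold change 0.71 ± 0.23, edgeR adjusted p = 0.228). DBH-AS1 had 8.11, 9.61 and 9.04 CPM in the knockdown and 5.74, 5.3 and 5.0 CPM in the control libraries (0.74 ± 0.21, edgeR adjusted p = 0.200). Both were above all control libraries. DBH, the gene that DBH-AS1 is named for, had a read in only 1 of the 6 libraries.

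**Figure D2:**
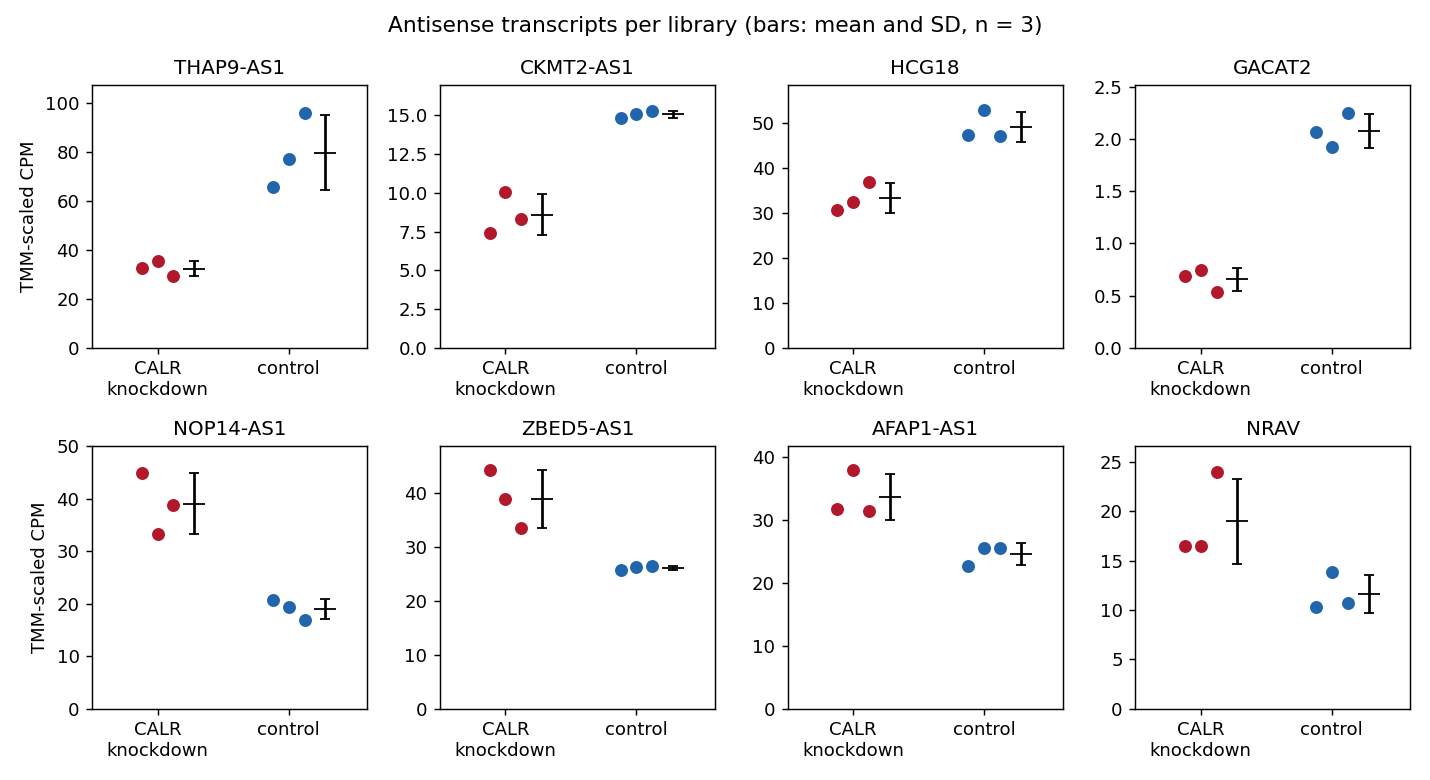
TMM-scaled CPM of 8 antisense transcripts in the 3 CALR knockdown libraries (left) and the 3 control libraries (right), with mean and SD beside the points. THAP9-AS1, CKMT2-AS1, HCG18 and GACAT2 were below every control library in all 3 knockdown libraries, and NOP14-AS1, ZBED5-AS1, AFAP1-AS1 and NRAV were above.

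A list of 50 symbols, drawn up as known antisense RNAs but not limited to them, was read in the same way. The table held 46 of them, and 17 met the 20-read rule. Of these 17, 6 were above and 11 below 0 in log2 fold change, with a median of -0.11 against -0.00 over all genes. By edgeR, 1 was nominally higher and 0 nominally lower in knockdown cells, against 8.17% and 7.36% of all genes tested. The one was AFAP1-AS1, with 31.7, 37.9 and 31.4 CPM in the knockdown and 22.6, 25.5 and 25.5 CPM in the control libraries. Its groups did not overlap, at a log2 fold change of 0.46 ± 0.17 and an edgeR adjusted p of 0.272. AFAP1, an actin filament-associated protein gene on the other strand, had a log2 fold change of 0.39 ± 0.19, and the ratio of the pair overlapped between groups (difference 0.07). FGD5-AS1, ZEB1-AS1 (-0.32) and TPT1-AS1 (-0.32) were below all control libraries in every knockdown library, without a nominal p. Of all genes tested, 11.2% were below in this way.

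Of the 497 symbols, 164 end in -AS and a number, and the sense gene of 159 was found in the table. Both transcripts could be tested in 144 pairs. The antisense RNA was the less abundant one in FPKM in 118 of them, with a median of 1.54 FPKM against 6.66 FPKM for the sense genes. The log2 fold changes of antisense and sense had a Spearman correlation of 0.20 across the 144 pairs, which share their libraries. A nominal p was found for 15.5% of all genes tested. In 17 pairs the antisense RNA and in 20 pairs the sense gene had a nominal p, and in 1 pair both had.

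That pair was ZBED5-AS1 and ZBED5, a zinc finger gene derived from a transposon, and its members differed in direction. ZBED5-AS1 had 44.3, 39.0 and 33.5 CPM in the knockdown libraries, against 25.7, 26.4 and 26.5 CPM in the control libraries (log2 fold change 0.57 ± 0.17, edgeR adjusted p = 0.218). ZBED5 had 29.6, 40.6 and 26.4 CPM in the knockdown libraries, against 46, 40.5 and 53.8 CPM in the control libraries (-0.54 ± 0.21, edgeR adjusted p = 0.285). The antisense groups did not overlap, while knockdown replicate 2 put ZBED5 within the control range. The log2 ratio of antisense to sense was 0.58, -0.06 and 0.35 in the knockdown and -0.84, -0.62 and -1.02 in the control libraries, a difference of 1.12. The starts lie 537 bases apart, and 27.0% of the exon bases of ZBED5-AS1 are covered by ZBED5.

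Over the 144 pairs, the ratio was higher in all knockdown libraries in 13 pairs and lower in 15. Among all 233 -AS pairs that could be tested, members or not, the shares were 9.87% and 10.7%. The pair count was therefore near its background. LPP-AS2 and LPP, the gene of a LIM-domain protein of cell adhesions, differed by 1.12 in log2 ratio, with LPP at a log2 fold change of 0.05 ± 0.21. DGUOK-AS1 (-1.09), LACTB2-AS1 (-1.08) and VLDLR-AS1 (-1.14) had lower ratios to DGUOK, LACTB2 and VLDLR, whose own log2 fold changes were 0.11, 0.10 and 0.13. NDUFB2-AS1 had a higher ratio to NDUFB2 by 0.48.

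In other pairs the sense gene had the larger log2 fold change. They were chosen after their values were seen. VIM, which encodes the intermediate filament protein vimentin, had a log2 fold change of 0.65 ± 0.16 while VIM-AS1 had -0.18 ± 0.20, and their log2 ratio was lower by 0.82 in knockdown cells. VIM-AS1 had 9.63, 11.3 and 10.4 CPM in the knockdown and 13.2, 11.4 and 10.8 CPM in the control libraries, which overlap. Its log2 fold change was 0.19 with the GC correction, so no direction can be given for it. NCK1, an adaptor protein gene, NR2F1, a nuclear receptor gene, and SEPSECS, an enzyme gene of selenocysteine synthesis, had log2 fold changes of -0.63, -0.67 and -0.63. Their antisense partners had 0.19 ± 0.29 (NCK1-AS1), 0.21 ± 0.21 (NR2F1-AS1) and 0.44 ± 0.33 (SEPSECS-AS1), and the ratios were higher in all knockdown libraries by 0.80, 0.89 and 1.05. ST3GAL4, a sialyltransferase gene, had a log2 fold change of 0.78 ± 0.17, against -0.28 ± 0.42 for ST3GAL4-AS1, and their ratio overlapped between groups.

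In one pair a single library stood apart for both genes. ARHGAP5, which encodes a GTPase-activating protein, had 41.5, 202 and 43.2 CPM in the knockdown libraries, against 97.4, 77.1 and 99.2 CPM in the control libraries. ARHGAP5-AS1 had 7.80, 19.5 and 10.8 CPM in the knockdown libraries, against 8.70, 6.18 and 6.44 CPM in the control libraries. Knockdown replicate 2 was the highest of the 6 for both. Without it the log2 fold change of ARHGAP5 was -1.10, against 0.07 ± 0.55 with all libraries. The log2 ratio of antisense to sense was -2.40, -3.37 and -2.001 in the knockdown and -3.48, -3.63 and -3.93 in the control libraries. It was higher in all 3 knockdown libraries, by 1.09, and the pair is one of the 13 counted above.

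**Figure D3:**
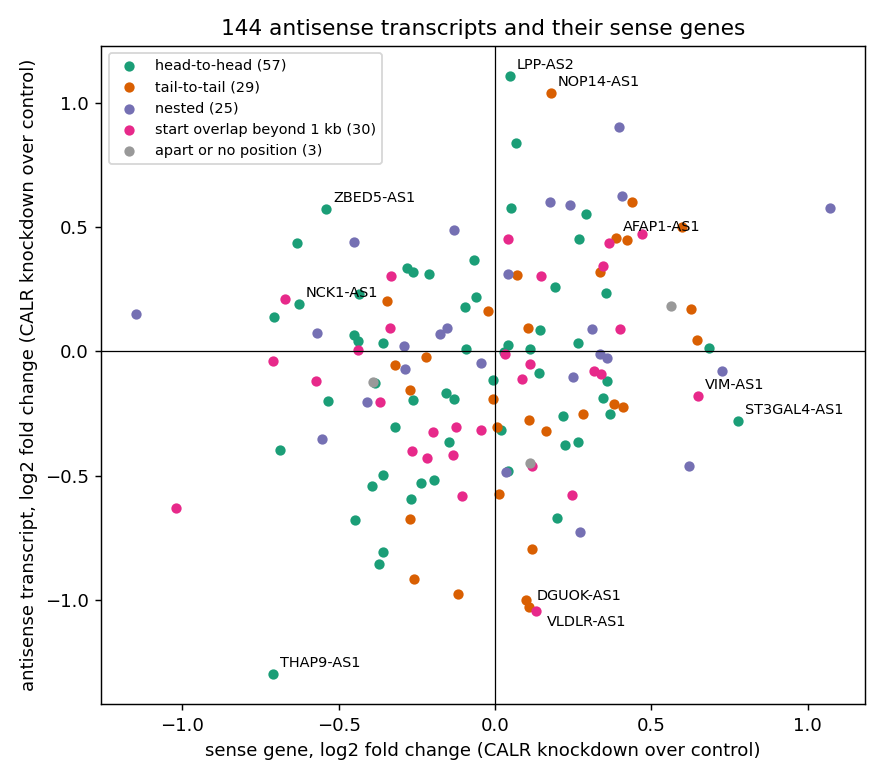
Log2 fold change (CALR knockdown over control) of the antisense transcript against that of its sense gene for 144 pairs, coloured by how the pair lies on the genome. The points form no line (Spearman 0.20), ZBED5-AS1 lies in the upper left with ZBED5 lower, and THAP9-AS1 lies in the lower left with THAP9.

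Position was not used by the rule. By GENCODE 29, which matched 486 of the 497, 231 transcripts start within 1 kb of a coding gene on the other strand, 227 overlap such a gene without a shared start and 28 do neither. The first class had 12 nominally higher (5.19%) and 16 nominally lower members (6.93%) and a median log2 fold change of -0.02. The second had 19 (8.37%) and 16 (7.05%) and a median of -0.05, against 8.17% and 7.36% of all genes tested. Of the pairs matched by symbol, the 57 head-to-head pairs tested had a Spearman correlation of 0.13, the 29 tail-to-tail pairs 0.40, the 25 nested pairs 0.10 and the 30 with overlapping starts beyond 1 kb 0.22.

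Against the 15.5% of all genes tested that had a nominal p, 225 transcripts with a tested coding gene starting within 1 kb were read. Among them 27 antisense RNAs and 33 coding genes had a nominal p, and 4 pairs had both. Both members had the same sign in 2 of the 4. RP11-73K9.2 (-0.79 ± 0.31) was lower together with AP1AR (-0.85 ± 0.34), which encodes a partner of the AP-1 adaptor complex, and CTD-2020K17.1 (0.73 ± 0.28) was higher together with the formin gene FMNL1 (1.07 ± 0.25). The opposite pairs were ZBED5-AS1 with ZBED5 and CTA-29F11.1 (-0.49 ± 0.21) with TBC1D22A (0.44 ± 0.19), a gene of the Rab GTPase-activating family. These errors are SE, and the edgeR adjusted p was 0.168 or more for each of the 8.

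Exons on the other strand covered none of 124 transcripts, under 50% of 293 and at least 50% of 69. Of the first class 9 were nominally higher (7.26%) and 12 nominally lower (9.68%), of the second 14 (4.78%) and 17 (5.80%), and of the third 9 (13.0%) and 4 (5.80%). The shares of all genes tested were 8.17% and 7.36%. Each transcript was also paired with the opposite gene that covers it most. Pairs with both tested numbered 57 at a coverage of at least 50%, 138 at 10 to 50% and 99 under 10%. In these classes 11, 16 and 10 antisense RNAs and 10, 22 and 9 opposite genes had a nominal p, against 15.5% of all genes tested. Both had one in 2, 5 and 0 pairs, that is in 7 pairs, and in 6 of them the directions were the same. These 6 were RP5-940J5.9 with GAPDH, RP11-124N14.3 with VIM, RP11-24C3.2 with TMA7, RP11-48B3.5 with ZBTB10, RP11-152N13.5 with CFAP70 and CTD-2020K17.1 with FMNL1. The coverage in them ranged from 17.13% to 100%. Whether coverage goes with a shared direction was not tested.

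RP5-940J5.9 lies wholly within exons of GAPDH, the glycolytic enzyme gene, on the other strand. It had 13.3, 6.16 and 10.5 CPM in the knockdown libraries, against 6.82, 5.79 and 5.25 CPM in the control libraries. GAPDH had 5912, 3341 and 5442 CPM in the knockdown libraries, against 3095, 2866 and 2554 CPM in the control libraries. Per 1000 reads of GAPDH, RP5-940J5.9 had 2.25, 1.84 and 1.92 reads in the knockdown and 2.20, 2.02 and 2.06 reads in the control libraries. The log2 fold changes were 0.74 ± 0.30 for the antisense row and 0.79 ± 0.23 for GAPDH, and the ratio of the pair overlapped between groups.

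RP11-124N14.3, covered to 87.7% by VIM, had 0.575, 0.509 and 0.554 reads per 1000 VIM reads in the knockdown libraries, against 0.532, 0.523 and 0.527 in the control libraries. Its log2 fold change was 0.70 ± 0.30, against 0.65 for VIM. RP11-161H23.5, covered to 97.9% by the tubulin gene TUBA1C, had 1.48, 1.39 and 1.44 reads per 1000 TUBA1C reads in the knockdown libraries, against 1.51, 1.39 and 1.67 in the control libraries. The log2 fold changes were 0.65 ± 0.34 and 0.73 for the pair. In these 3 pairs the antisense row kept a nearly fixed ratio to the opposite gene in all 6 libraries.

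Of 19 transcripts covered to at least 85% by 1 opposite gene, 6 face a gene that averaged 100 FPKM or more. These 6 had between 0.509 and 4.20 reads per 1000 reads of that gene, and the highest library was 1.13 to 2.82 times the lowest. The widest of them was RP11-22N19.2 with NAMPT, the gene of an enzyme of NAD synthesis, at 4.20, 1.49 and 3.59 in the knockdown and 3.47, 2.15 and 2.69 in the control libraries. For the 13 facing less abundant genes the ratio lay between 4.23 and 23634 reads per 1000, and the highest library was 1.29 to 3.76 times the lowest. Without the 69 transcripts covered to at least 50%, 24 were nominally higher and 30 nominally lower, where 8.17% and 7.36% of all genes tested were.

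**Figure D4:**
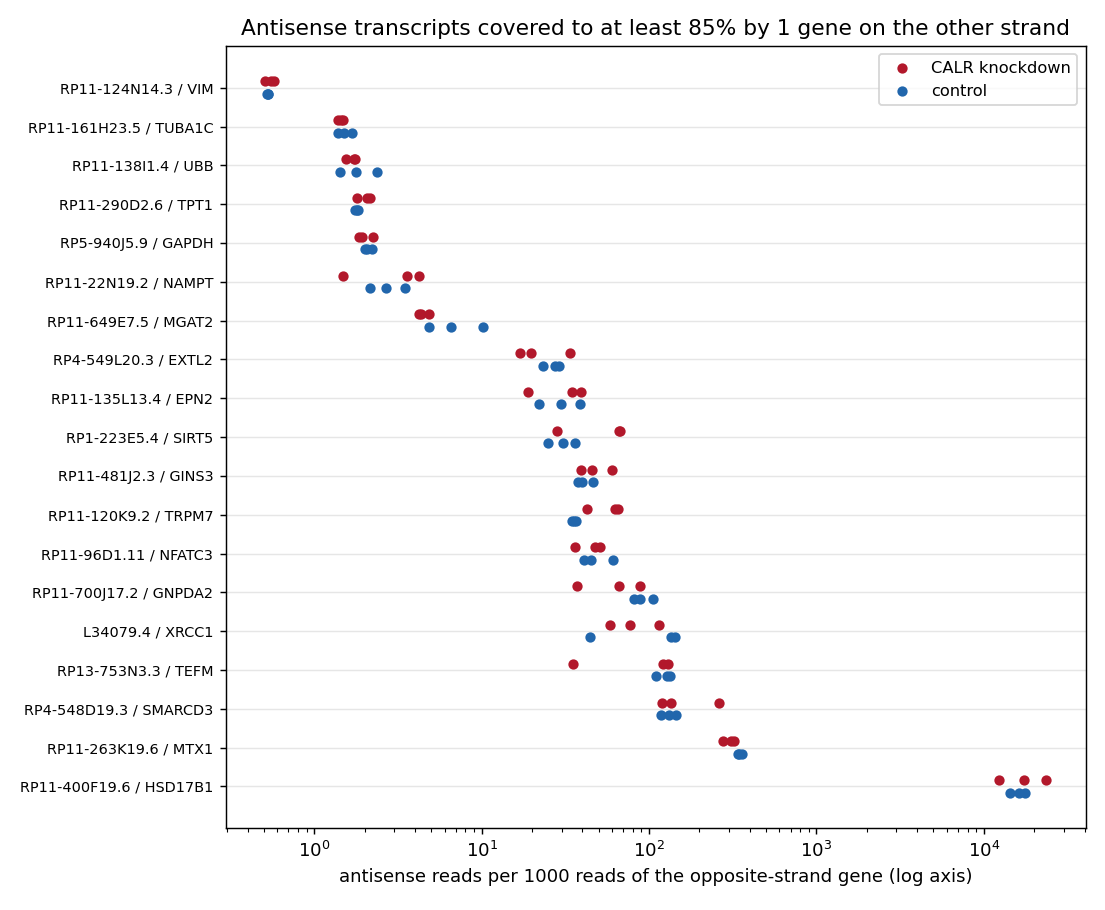
Reads of the antisense row per 1000 reads of the opposite gene that covers it (log axis), for 19 transcripts covered to at least 85%, with each pair's CALR knockdown libraries above its control libraries. The pairs with VIM, TUBA1C, UBB, TPT1, GAPDH and NAMPT lie lowest, between 0.509 and 4.20 reads per 1000, and the highest library of the VIM pair is 1.13 times its lowest.

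GC content varied with the libraries. Across all genes tested, the Spearman correlation of a gene's deviation in a library with its GC content was 0.31, -0.44 and 0.53 in the knockdown libraries, against -0.23, -0.10 and -0.38 in the control libraries. Among the 162 antisense transcripts of lowest GC content (up to 45.6%), 5 were nominally higher (3.09%) and 14 nominally lower (8.64%), with a median log2 fold change of -0.20. All genes in that GC range had shares of 2.91% and 9.66%. Among the 162 of highest GC content (from 52.9%), 14 were nominally higher (8.64%) and 3 nominally lower (1.85%), with a median of 0.04, against shares of 13.4% and 5.58% of all genes in that range. All genes tested within the same GC ranges had medians of -0.17 and 0.16. After a GC trend was removed from each library, the 3 GC classes of the antisense transcripts had medians of -0.00, -0.01 and 0.01, and all genes tested had a median of 0.08. Classes closer together follow in part from removing that trend. In the corrected fit 7.85% of the antisense transcripts were nominally higher and 5.84% lower, against 14.0% and 6.53% of all genes.

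Measured from the control mean, the split by GC was widest in knockdown replicates 1 and 3. The control libraries lie near 0 in part because their own mean was subtracted. Against the mean of all 6 libraries, the correlations given above were also -0.44 in knockdown replicate 2 and -0.38 in control replicate 3. The median deviation of the low-GC transcripts was -0.39, 0.04 and -0.31 in the knockdown and 0.04, -0.08 and 0.05 in the control libraries. The high-GC transcripts stood at -0.02, -0.09 and 0.27 in the knockdown and 0.03, 0.02 and -0.03 in the control libraries. Of the 67 nominal transcripts, 57 stayed so with the GC correction, and 14 did in every fit that left out 1 library.

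**Figure D5:**
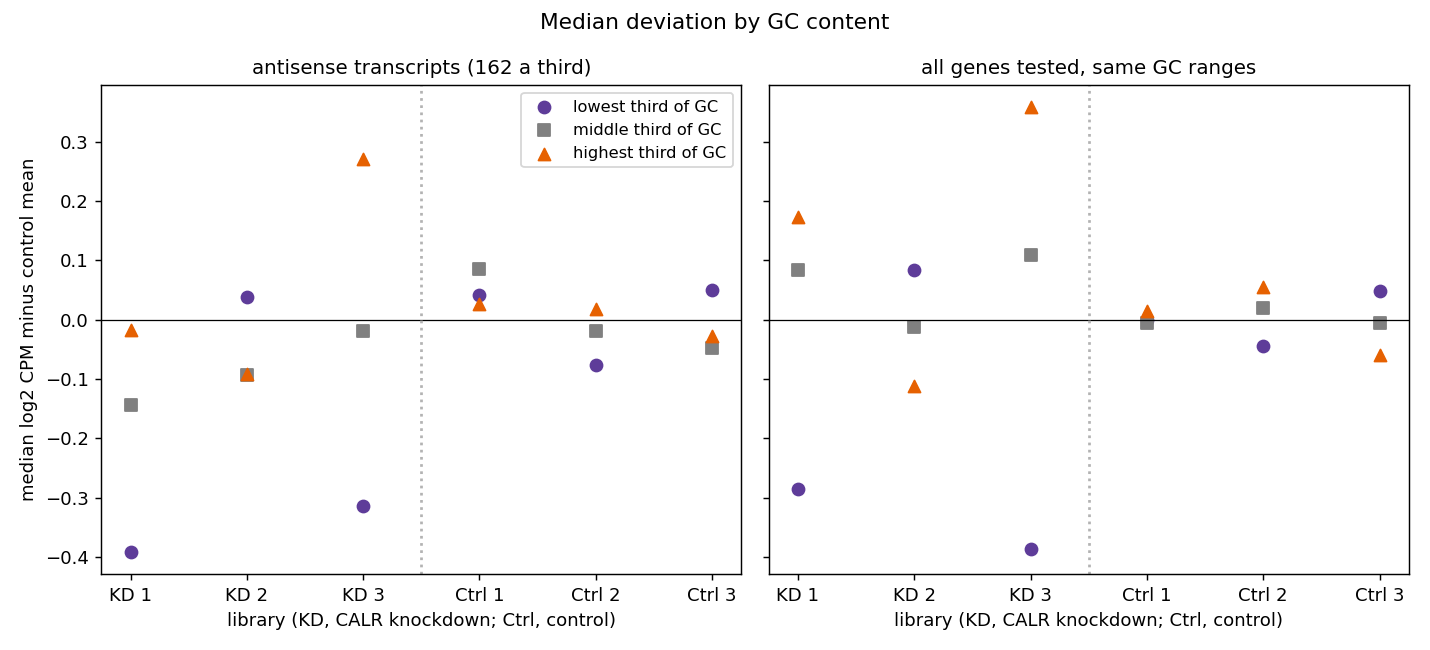
Median deviation of log2 CPM from the control mean in each library for low, middle and high GC content, for the antisense transcripts (left panel, 162 in each class) and for all genes tested in the same GC ranges (right panel). The classes spread most in CALR knockdown replicates 1 and 3, with low-GC antisense transcripts at -0.39 and -0.31. They lie close together in the control libraries, whose own mean was subtracted.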

How the data were processed

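RNA was measured in 6 libraries of MDA-MB-231 cells, 3 with CALR knockdown and 3 controls, grouped by their labels. The deposited table holds raw read counts per gene, and a second deposited table holds FPKM values computed by the authors. FastQC 0.9.5, TopHat2 and the build GRCh38 are named in the submitters' processing notes; how reads were counted, with which strand option and against which gene models, is not given in the sources used here. The deposited counts were tested with edgeR 4.0.16 in R 4.3.3: filterByExpr at its defaults (16394 genes, all 497 antisense transcripts among them), TMM scaling, the quasi-likelihood F-test with no covariate, and Benjamini-Hochberg adjustment over all genes tested at 0.05. Errors on log2 fold changes are standard errors. Log2 ratios of antisense to sense use log2 CPM with a prior count of 2 and exact permutation tests over libraries. FPKM served for levels and, in limma 3.58.1 with a pseudocount of 1 or 0.1, as an alternative; folds on that scale are of log2(FPKM + pseudocount). DESeq2 1.42.0, limma-voom, other scalings and filters, a GC correction, the replicate number as a block and leaving out each library were the other alternatives. The edgeR script was tested on simulated data. Positions, exon overlap and GC content came from GENCODE 29 on GRCh38, which matched 30871 of 31582 gene identifiers; GC content was known for 16294 of the 16394 genes tested. Antisense transcripts and lists were chosen with earlier results of these data known. Transcripts were named by this rule: the 10 largest increases and the 10 largest decreases among those with an unadjusted p under 0.05 and groups that do not overlap, the 8 with the highest mean FPKM, those on the list of 50 symbols with an unadjusted p under 0.05, and their sense genes. Others are said to be chosen after their values were seen.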

Additional observations from a re-analysis of the deposited data

How the results depend on the processing

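No antisense transcript passed the adjusted threshold in the main edgeR fit. Adjusted calls, among the transcripts or over all genes, came in 5 other settings, all but DESeq2 being edgeR fits. They were DESeq2 (10 of the transcripts, 530 of all genes), no filter on low counts (5 and 988), the GC correction (0 and 13), the replicate block with the GC correction (1 and 42), and leaving out a library (0 to 37 of the transcripts, 0 to 2604 of all genes, with the highest values without CALR knockdown replicate 2). The nominal counts of 67, 33 higher and 34 lower, ranged from 22 to 107, from 8 to 40 and from 14 to 67 with a library left out. Over all genes the shares then ranged from 2.87% to 17.9% higher and from 4.36% to 17.7% lower. The nominal counts were 15 higher and 54 lower under library size alone, 15 higher and 36 lower on log2(FPKM + 1), 14 and 36 on log2(FPKM + 0.1), both over 335 transcripts, and 19 and 49 on log2(FPKM + 0.1) with no filter. The shares of all genes in these 4 fits, in the same order, were 4.45% and 11.03%, 5.501% and 10.7%, 5.501% and 10.5%, and 3.01% and 7.81%. A bound of 50 reads gave 33 nominal transcripts, 20 higher and 13 lower, and a mean of at least 20 reads gave 53 lower. In the main fit 8.17% of all genes were nominally higher and 7.36% lower. The median log2 fold change was -0.19 under library size alone and -0.19 and -0.18 on log2(FPKM + 0.1) with and without a filter, lay between -0.076 and -0.010 with a library left out, and was 0.00017 with the GC correction and 0.0036 at 50 reads. Relative to all genes tested the difference was -0.054 in the main fit, -0.053 under library size alone and -0.084 with the GC correction. The counts of transcripts with groups that did not overlap (107, 47 higher and 60 lower) ranged from 131 to 218, from 51 to 83 and from 72 to 135 with a library left out, where fewer values have to separate. They were 31 higher under library size alone, 71 with 37 lower at a CPM of at least 1, and 60 with 29 higher and 31 lower at 50 reads. The 28 pairs whose ratio did not overlap (13 higher, 15 lower) ranged from 32 to 61, from 14 to 30 and from 18 to 31. For groups and ratios that did not overlap, the shares over all genes or pairs in these other settings are not given here.

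The labels do not say whether shared replicate numbers pair the libraries. Deviations from the group mean correlated at 0.20, -0.12 and -0.22 for same-numbered libraries, and between -0.20 and 0.36 for differently numbered ones. With deviations taken within groups of 3, these values cannot decide whether a culture or day was shared. With the replicate block, edgeR made 0 adjusted calls among the transcripts. In that fit 17 were nominally higher (3.42%) and 29 lower (5.84%), against 5.98% and 7.50% of all genes. A ratio of 1 sign in all same-numbered pairs was found for 50 pairs (20 higher, 30 lower), and the matching share over all pairs is not given here.

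Of 97 named genes and pairs, 82 kept their direction in every setting. Under library size alone the log2 fold change turned to -0.036 for RP11-282O18.3, -0.044 for DGUOK, -0.020 for VLDLR, -0.021 for LACTB2 and -0.063 for LPP. On log2(FPKM + 1) and log2(FPKM + 0.1) it was -0.065 and -0.066 for RP11-282O18.3, -0.037 and -0.037 for DGUOK, -0.059 and -0.085 for VLDLR, -0.031 and -0.035 for LACTB2, -0.062 and -0.10 for LPP and -0.37 and -0.46 for ARHGAP5, with the same values without a filter. PITPNA turned to 0.0027 with median-ratio size factors and in DESeq2 and to 0.013 with no filter. VIM-AS1 was 0.19 and SLC25A24 0.017 with the GC correction, and 0.17 and 0.016 with the replicate block and GC correction. ARHGAP5 was -0.34 in limma-voom and -0.39 with the replicate block. With a library left out, the ranges that crossed 0 were -0.40 to 0.052 for CTB-25B13.12, -0.0020 to 0.42 for RP4-614O4.11, -0.037 to 0.28 for RP11-282O18.3, -0.036 to 0.27 for DGUOK, -0.24 to 0.20 for PITPNA, -0.27 to 0.40 for VLDLR, -0.027 to 0.22 for LACTB2, -0.19 to 0.22 for LPP, -0.57 to 0.13 for ST3GAL4-AS1, -0.026 to 0.37 for NCK1-AS1 and -1.10 to 0.43 for ARHGAP5. The log2 ratio ranged from -0.10 to 0.17 for AFAP1-AS1 to AFAP1 and from -0.17 to 0.61 for ZEB1-AS1 to ZEB1. The cause of these changes was not tested. Depth differs among the transcripts: 108 had fewer than 30 reads in their lowest library and 169 had 100 or more.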
